A study of Mus musculus with 36 samples.

Results

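The genes described here are the drug-metabolising cytochrome P450, UDP-glucuronosyltransferase, glutathione S-transferase and sulfotransferase genes expressed in mouse duodenal organoids. They were chosen by name (Cyp1 to Cyp4, Ugt1 and Ugt2, the Gst classes alpha, kappa, mu, omega, pi and theta, and Sult, without pseudogene symbols) and by a mean level of at least 3 CPM (a gene's count per 1000000 counts of its library) over all 36 libraries. Of 34197 genes in the table, 120 carried such names and 65 of these reached the limit, while 55 lay below it. The 65 comprised 2 Cyp1, 19 Cyp2, 4 Cyp3, 8 Cyp4, 2 Ugt1, 6 Ugt2, 4 Gst alpha, 7 Gst mu, 8 other Gst and 5 Sult genes. The overall level chose them, so their levels are a description, while differences between groups of libraries played no part in the limit. Just inside it lay Cyp4f17 at 4.37, Cyp2c70 at 3.80 and Cyp3a59 at 3.67 CPM, and just outside it Cyp2c67 at 2.72, Gsto2 at 2.52 and Cyp4a10 at 2.19 CPM.

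Drug metabolism runs in steps. P450 enzymes of the Cyp1 to Cyp3 families add an oxygen to foreign compounds and steroids, and Cyp4 enzymes mainly hydroxylate fatty acids. Ugt, Gst and Sult enzymes then attach glucuronic acid, glutathione or sulfate, which makes the product soluble for export. In the small intestine these enzymes act mostly in absorptive enterocytes, and their genes are known targets of the receptors AHR (Cyp1), PXR and CAR (Cyp2b, Cyp2c and Cyp3a) and of the oxidative stress factor NRF2 (many Gst genes).

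Duodenal tissue of C57BL/6 mice over 8 weeks old, males or virgin females, gave the organoids, which were grown in medium with EGF, Noggin, R-Spondin 1 and N-acetylcysteine, a glutathione precursor. They were loaded on a microfluidic chip under a flow of 200 µl per h and received either DMSO or DAPT for 24, 48 or 72 h. DAPT inhibits γ-secretase, the protease that activates Notch receptors, and was pulsed every 90, 130 or 170 min. Each of the 12 combinations of treatment and duration had 3 libraries of polyadenylated RNA, each from 20 to 50 organoids with no sorting of cell types. DAPT was used at 1.38 µM for 90 min, 2 µM for 130 min, and 2.6 and 2 µM for 170 min, so period and concentration cannot be told apart. Organoids were passaged 3, 2 or 1 days before runs of 24, 48 or 72 h, so every library was harvested 4 days after passage and a longer time on the chip went with a shorter time off it; these cannot be told apart either. The labels do not say whether replicates were separate cultures or whether DMSO was given in pulses, and p-values measure the spread between these libraries.

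Library totals ran from 482741 to 1447330 counts with a median of 958749, at which 3 CPM corresponds to 2.88 counts. All 8 markers of intestinal epithelium and all 4 of duodenal identity had a mean of at least 3 CPM, against 0 of 8 fibroblast, 1 of 7 immune and 1 of 5 endothelial markers in the table. The libraries of a group differed in sex-linked RNA. The summed level of the Y-linked genes Ddx3y, Eif2s3y, Kdm5d and Uty ran from 1.52 to 535 CPM, and Xist stood at 85.3 and 96.7 CPM in replicate 3 of 130 min and of 170 min at 24 h and at most 1.62 CPM in the other libraries. In the drug-metabolising genes 3 libraries stood apart. Genes tested are the 12487 with a mean of at least 3 CPM. DMSO 48 h replicate 3 had the lowest level of 21 genes of the 65, against 3.24% of all genes tested. For 130 min 72 h replicate 2 this was 18 genes, against 4.1%. In both, 86.2% of the 65 genes lay below their median over the 36 libraries, against 46.7% and 47.7% of all genes tested. The highest level of 23 genes of the 65 fell in 130 min 24 h replicate 3. The share of all genes highest there was not computed, and 11.6% were at their lowest there. The results below are therefore given with and without these 3 libraries where they differ. The 3 were chosen by the levels of these same 65 genes, so adjusted p-values without them describe the data and are not independent tests.

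**Figure D1:**
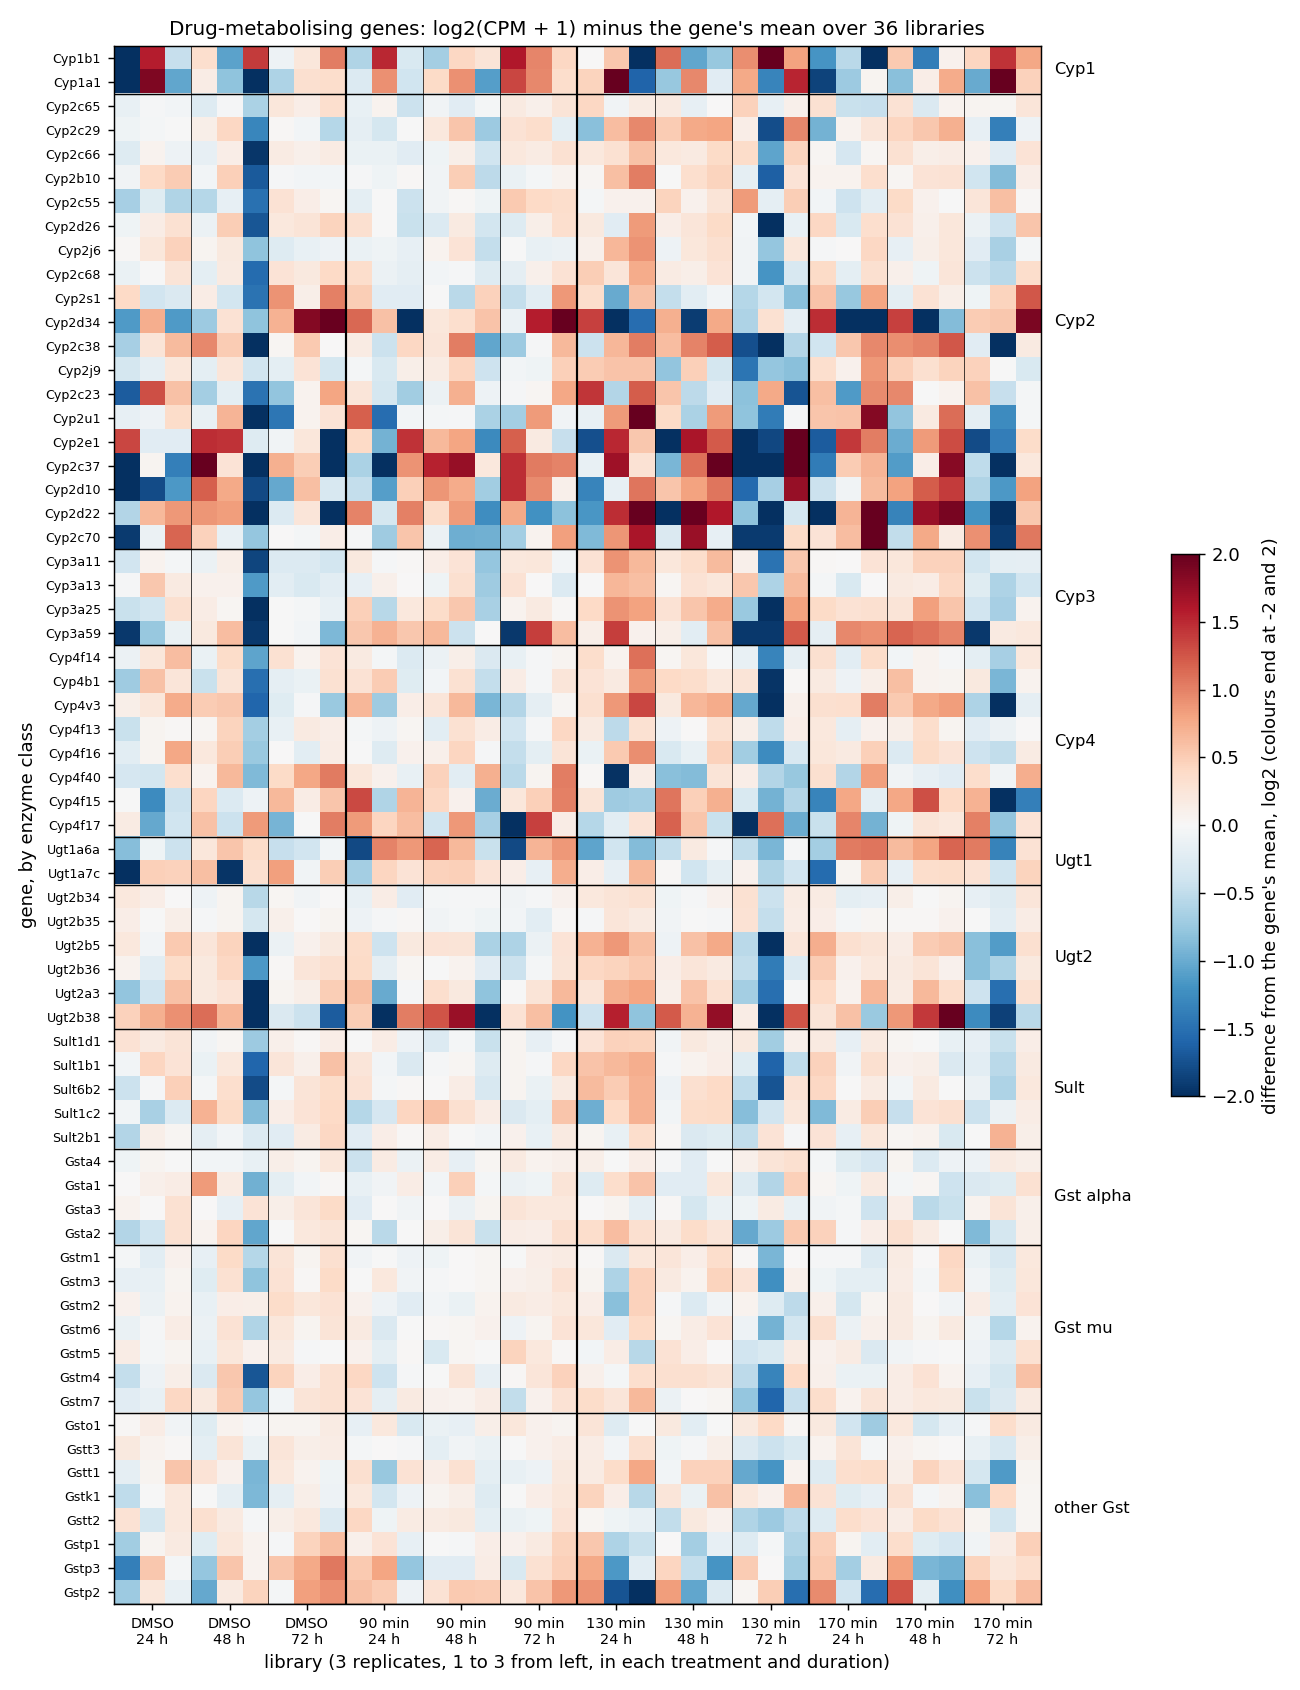
Level of the 65 genes (rows, by enzyme class) in the 36 libraries (columns, 3 replicates in each treatment and duration), as log2(CPM + 1) minus the gene's mean over all libraries. DMSO 48 h replicate 3 and 130 min 72 h replicate 2 are blue through most Cyp2, Cyp3, Cyp4, Ugt2 and Sult rows, and 130 min 24 h replicate 3 is red in many of them.

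The level of the classes differed in how steady it was from library to library. Values are CPM of counted molecules without division by transcript length, so they are compared within a gene and not between genes. Among glutathione transferases of class alpha, Gsta4, which conjugates the lipid peroxidation product 4-hydroxynonenal, averaged 721 CPM and stayed between 532 and 895 CPM in all 36 libraries. Gstm1 of class mu averaged 891 CPM (463 to 1169 CPM) and Gsto1, an omega-class enzyme that reduces dehydroascorbate, 750 CPM (453 to 974 CPM). Ugt2b35 ranged from 202 to 347 CPM and Ugt2b34 from 459.9 to 839.7 CPM, and both glucuronidate lipophilic substrates. These genes varied by less than 3-fold between the extreme libraries.

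Several P450 genes varied more than these, but the split was not by enzyme type. Ugt2b5, a conjugating gene, also varied more, and Cyp2c65, a P450 gene, did not. Cyp3a11, the main mouse counterpart of the human drug oxidase CYP3A4, averaged 538 CPM and ran from 141 CPM in DMSO 48 h replicate 3 to 952 CPM in 130 min 24 h replicate 2. Cyp3a25 ran from 10.9 to 223 CPM between the same 2 libraries. Cyp2c29 ran from 160 CPM in 130 min 72 h replicate 2 to 1073 CPM in replicate 3 of the same group. The median standard deviation within groups, on the log2(CPM + 1) scale, was 0.48 over the 65 genes and 0.30 over all genes tested. By class it was 1.28 for Cyp1, 0.80 for Ugt1, 0.67 for Cyp2, 0.64 for Cyp3, 0.59 for Cyp4 and 0.52 for Ugt2. It was 0.41 for Sult, 0.35 for other Gst, 0.28 for Gst alpha and 0.26 for Gst mu. The classes overlapped, with single genes from 0.23 to 1.72 in Cyp2 and from 0.16 to 1.49 in Ugt2. Cyp1a1 averaged 15.1 counts per library and Cyp1b1 48.3, and the part of counting error in their spread was not tested.

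Cyp1a1 and Cyp1b1, which oxidise polycyclic aromatic compounds and are classic AHR targets, had the widest median spread of any class. Cyp1a1 in the DMSO libraries stood at 2.07, 43.6 and 4.96 CPM at 24 h, 12.6, 6.02 and 1.21 CPM at 48 h, and 7.01, 14.3 and 14.6 CPM at 72 h (replicates 1 to 3). Cyp1b1 in the same libraries stood at 2.07, 110 and 26.0 CPM, then 46.1, 16.9 and 97.8 CPM, then 33.7, 42.9 and 75.2 CPM. A single group thus held values more than 10-fold apart, and the treatments overlapped throughout. Cyp1b1 was 1.16 higher on the log2 scale at 72 h than at 24 h (SE 0.42), with an edgeR adjusted p of 0.216.

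Enterocyte RNA was also extreme in the 3 libraries that stand apart. The summed level of 18 enterocyte markers ran from 2451 CPM in 130 min 72 h replicate 2 to 9425 CPM in 130 min 24 h replicate 3, with a median of 5238 CPM. In the same 2 libraries the Cyp4 genes summed to 305 and 1457 CPM, the Sult genes to 360 and 1023 CPM, the Cyp2 genes to 1699 and 4799 CPM, and the Ugt2 genes to 809 and 1818 CPM. In DMSO 48 h replicate 3, where the enterocyte markers summed to 2548 CPM, these classes were as low, at 363, 315, 1283 and 807 CPM. The Gst alpha genes summed to 1420.2 and 1625 CPM in the first 2 of these libraries and to 1166 CPM in the DMSO library, and their range over all 36 was narrower, from 1146 to 1724 CPM. The Cyp1 genes were at 170 CPM in the library with the fewest enterocyte transcripts and at 6.10 CPM in the library with the most. In other libraries the sums did not always go together: DMSO 24 h replicate 3 had 7248 CPM of enterocyte markers, above the median, and 3161 CPM of Cyp2 transcripts, below their median of 3326 CPM. In bulk RNA, fewer enterocytes and less of these transcripts per enterocyte cannot be told apart.

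**Figure D2:**
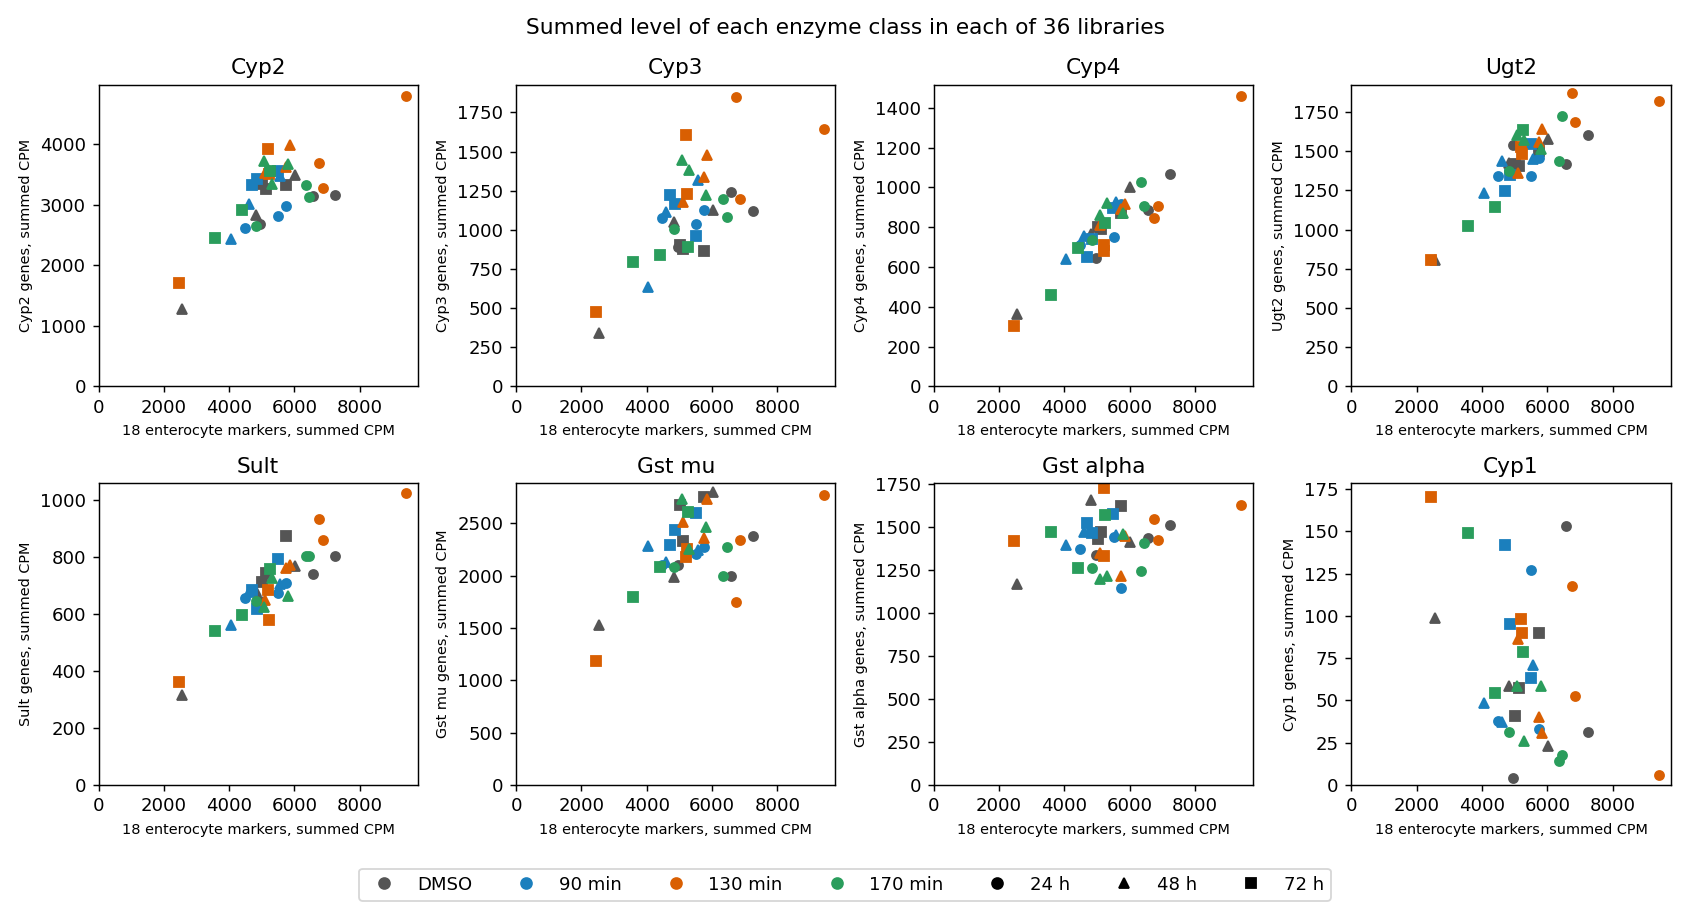
Summed CPM of the genes of 8 enzyme classes (y axes) against the summed CPM of 18 enterocyte markers (x axes) in each of the 36 libraries, coloured by treatment and shaped by duration. Cyp2, Cyp4, Ugt2 and Sult sums are lowest in the 2 libraries with marker sums of 2451 and 2548 CPM, while Gst alpha sums span only 1146 to 1724 CPM, with 1166 and 1420.2 CPM in these 2 libraries.

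The comparison of durations asked which genes differed between 24, 48 and 72 h on the chip, averaged over the 4 treatments. Cyp2c55 rose from 24 h to 72 h, by 0.54 on the log2 scale (SE 0.12, edgeR adjusted p = 0.0451). It encodes a P450 of the Cyp2c subfamily that hydroxylates arachidonic acid and is known as inducible through CAR and PXR. It was the only 1 of the 65 genes past an adjusted p of 0.05 in this comparison, in which 21 of all 12487 genes (0.168%) passed. At an unadjusted p under 0.05 there were 23 of 65 genes, 6 higher and 17 lower, against 14.3% of all genes.

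In DMSO, Cyp2c55 stood at 180, 243 and 188 CPM at 24 h, at 192, 256 and 101 CPM at 48 h and at 349, 314 and 296 CPM at 72 h (replicates 1 to 3). Under 90 min pulses it stood at 251, 286 and 212 CPM, then 274, 290 and 270 CPM, then 411, 377 and 366 CPM. In both treatments every 72 h library lay above every 24 h library. Under 130 min pulses it stood at 279, 305 and 303 CPM, then 392, 306 and 344 CPM, then 520, 254 and 404 CPM. Under 170 min pulses it stood at 276, 215 and 247 CPM, then 372, 304 and 286 CPM, then 340, 434 and 293 CPM. The 130 min groups overlapped, through replicate 2 at 72 h, and the 170 min groups at 24 and 72 h did not. Within treatments the log2 change from 24 h to 72 h was 0.59 in DMSO, 0.64 in 90 min, 0.39 in 130 min and 0.56 in 170 min, and none of these passed by itself, with adjusted p from 0.486 to 1. Without the 3 libraries that stand apart the averaged change was 0.62, with an edgeR adjusted p of 0.000244. Over 36 alternative settings the change stayed between 0.44 and 0.63, and the call was lost in 19. These included leaving out any 1 of 16 of the 24 libraries compared: it was kept only without replicate 2 of DMSO or of 90 min at 24 h, replicate 1 of 130 min or of 170 min at 24 h, or, at 72 h, replicate 3 of 90, 130 or 170 min or replicate 2 of 130 min.

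Sequence before the start site is shown for the 3 genes that passed a test in any comparison and for Cyp2c65, the neighbour of Cyp2c55 in the Cyp2c cluster of chromosome 19. Each is 300 bases from RefSeq (build GRCm38.p6), 250 before to 50 after the annotated start, 5′ to 3′ on the gene's strand, with capitals for matches to 4 motifs: the AHR core TNGCGTG, the NRF2 core TGACNNNGC, the HNF4 core CAAAGTCCA and the CDX core TTTATTG, searched on both strands. Cyp2c55 lies at chr19:39006769-39007068, plus strand, and Cyp2c65 at chr19:39060756-39061055, plus strand. The Cyp2j9 window is chr4:96591436-96591735, minus strand, and the Gstm7 window, the nearer to the gene body of its 2 annotated starts, is chr3:107931565-107931864, minus strand.
Cyp2c55: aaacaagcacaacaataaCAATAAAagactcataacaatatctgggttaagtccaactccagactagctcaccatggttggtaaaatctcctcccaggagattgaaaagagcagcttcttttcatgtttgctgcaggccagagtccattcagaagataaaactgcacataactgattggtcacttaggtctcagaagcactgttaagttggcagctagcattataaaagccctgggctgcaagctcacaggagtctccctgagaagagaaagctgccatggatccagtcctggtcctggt
Cyp2c65: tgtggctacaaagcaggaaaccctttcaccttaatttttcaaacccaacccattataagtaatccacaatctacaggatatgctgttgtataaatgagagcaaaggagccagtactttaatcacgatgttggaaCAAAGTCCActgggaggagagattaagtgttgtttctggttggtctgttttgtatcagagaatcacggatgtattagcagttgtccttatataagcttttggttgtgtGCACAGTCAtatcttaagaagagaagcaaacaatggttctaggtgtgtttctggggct
Gstm7: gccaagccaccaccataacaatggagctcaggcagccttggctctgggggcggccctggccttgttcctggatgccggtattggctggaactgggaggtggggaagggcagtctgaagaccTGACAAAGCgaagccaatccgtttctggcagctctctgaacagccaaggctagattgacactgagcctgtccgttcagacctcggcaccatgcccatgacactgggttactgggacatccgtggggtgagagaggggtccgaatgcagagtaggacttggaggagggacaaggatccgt
Cyp2j9: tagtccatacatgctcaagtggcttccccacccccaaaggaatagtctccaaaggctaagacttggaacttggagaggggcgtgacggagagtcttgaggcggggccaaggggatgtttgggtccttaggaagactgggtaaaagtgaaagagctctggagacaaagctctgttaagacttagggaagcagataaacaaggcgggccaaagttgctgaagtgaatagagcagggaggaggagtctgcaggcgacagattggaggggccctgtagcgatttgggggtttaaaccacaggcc
The Cyp2c55 window held a CDX core on the minus strand, and the Cyp2c65 window an HNF4 core on the plus and an NRF2 core on the minus strand. The Gstm7 window shown held an NRF2 core, and the window of its other annotated start, not shown, none of the 4. The Cyp2j9 window held none of the 4. Of the 65 genes, 58 had a promoter entry. A gene was counted if any of its entries matched, while all promoters were counted singly, so the shares below are not like for like. The HNF4 core was in 5 of these (8.62%; Cyp2c65, Cyp2c68, Cyp2c70, Cyp3a11 and Sult1b1) and in 0.475% of all 32851 promoters of the same length. The AHR core was in 3 (5.17%, against 5.07% of all), the NRF2 core in 7 (12.1%, against 12.4%) and the CDX core in 3 (5.17%, against 4.60%). These are letter matches, and neighbouring genes of a cluster can share sequence by descent: 50 of the 65 genes lay in 14 clusters with another of them within 2 genes.

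No other gene of the 65 passed between durations in edgeR. The averages of 48 h against 24 h and of 72 h against 48 h called 0 of 65 genes in edgeR, with 0% of all genes called in both. At unadjusted p under 0.05 there were 6 and 15 of the 65, against 9.15% and 12.5% of all genes, and DESeq2 called 0 and 3 of the 65, against 0.136% and 0.0881% of all genes. The lowest p from 24 h to 48 h belonged to Sult1d1, a sulfotransferase for catecholamines, at -0.31 (SE 0.09, adjusted p = 0.365), followed by Cyp2d10 at 1.31 (SE 0.41, adjusted p = 0.409) and Sult1b1 at -0.39 (SE 0.15, adjusted p = 0.479). From 48 h to 72 h, Gsta3 was 0.27 higher (SE 0.07) and Cyp2c55 0.42 higher (SE 0.12), both with an adjusted p of 0.208, and Gsta4 0.23 higher (SE 0.07, adjusted p = 0.221). DESeq2 called these 3.

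Among the 17 genes lower at an unadjusted p under 0.05, Cyp4v3 had the smallest p, at -1.08 (edgeR adjusted p = 0.0786), and DESeq2 called it at an adjusted p of 0.0301, 1 of 2 such calls against 0.833% of all genes. Its level ran from 15.6 CPM in 130 min 72 h replicate 2 to 271 CPM in 130 min 24 h replicate 3. By class, the change from 24 h to 72 h over all treatments had a median of -0.42 over the 6 Ugt2 genes, -0.34 over the 4 Cyp3, -0.27 over the 19 Cyp2, -0.24 over the 5 Sult and -0.16 over the 8 Cyp4 genes. It was 0.01 over Ugt1, 0.02 over Gst alpha, 0.05 over Gst mu, 0.11 over other Gst and 0.74 over the 2 Cyp1 genes. Over all 65 genes it was -0.14, and 0.00 over all genes tested. Over the 18 enterocyte markers it was -0.44, with Apoa4, an enterocyte apolipoprotein, past the threshold at -1.81 (SE 0.38, adjusted p = 0.0451). Without the 3 libraries that stand apart the median over the 65 genes was -0.03. By class it was then -0.30 over Ugt2, -0.22 over Cyp3, -0.15 over Cyp2, -0.15 over Sult and -0.16 over Cyp4. Over Gst alpha it was 0.07, over Gst mu 0.16, over other Gst 0.08, over Ugt1 0.10 and over Cyp1 0.63. The part of the enterocyte transcripts in these class values was not tested.

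Under 130 min pulses 2 genes fell over time. Gstm7, a mu-class glutathione transferase, fell by 1.35 on the log2 scale from 24 h to 72 h (SE 0.27), and Cyp2j9, of the Cyp2j subfamily of arachidonic acid epoxygenases, fell by 1.60 (SE 0.33), both with an edgeR adjusted p of 0.0359. They were the 2 of 65 genes past the threshold, against 22 genes (0.176%) of all 12487. At an unadjusted p under 0.05 there were 22 of the 65, all lower, against 13.7% of all genes. DESeq2 called 7 of the 65, adding Sult1b1, Ugt2b36, Cyp4f14, Cyp4f16 and Gstt1, against 1.17% of all genes. The median change was -0.49 over the 65 genes and 0.01 over all genes tested.

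Gstm7 under 130 min pulses stood at 112, 103 and 137 CPM at 24 h, at 80.2, 87.9 and 89.5 CPM at 48 h and at 50.7, 28.3 and 63.0 CPM at 72 h. The 3 durations did not overlap. In DMSO it stood at 74.6, 78.5 and 116 CPM at 24 h and at 84.1, 105 and 108 CPM at 72 h, which overlapped. Its change from 24 h to 72 h was 0.08 in DMSO, -0.07 in 90 min and -0.38 in 170 min.

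Cyp2j9 under 130 min pulses stood at 34.7, 36.6 and 36.6 CPM at 24 h, at 13.5, 34.2 and 18.8 CPM at 48 h and at 8.18, 13.7 and 13.1 CPM at 72 h. The 24 h and 72 h libraries did not overlap, and the 48 h libraries overlapped those at 72 h. In DMSO it stood at 18.6, 21.2 and 28.5 CPM at 24 h and at 21.0, 29.5 and 18.8 CPM at 72 h. Its change was -0.04 in DMSO, 0.23 in 90 min and -0.38 in 170 min. Sult1b1, which sulfates thyroid hormones and small phenols, stood at 269, 282 and 297 CPM at 24 h under 130 min pulses and at 152, 58.6 and 126 CPM at 72 h, a change of -1.39 (SE 0.32, adjusted p = 0.0631) that did not pass.

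**Figure D3:**
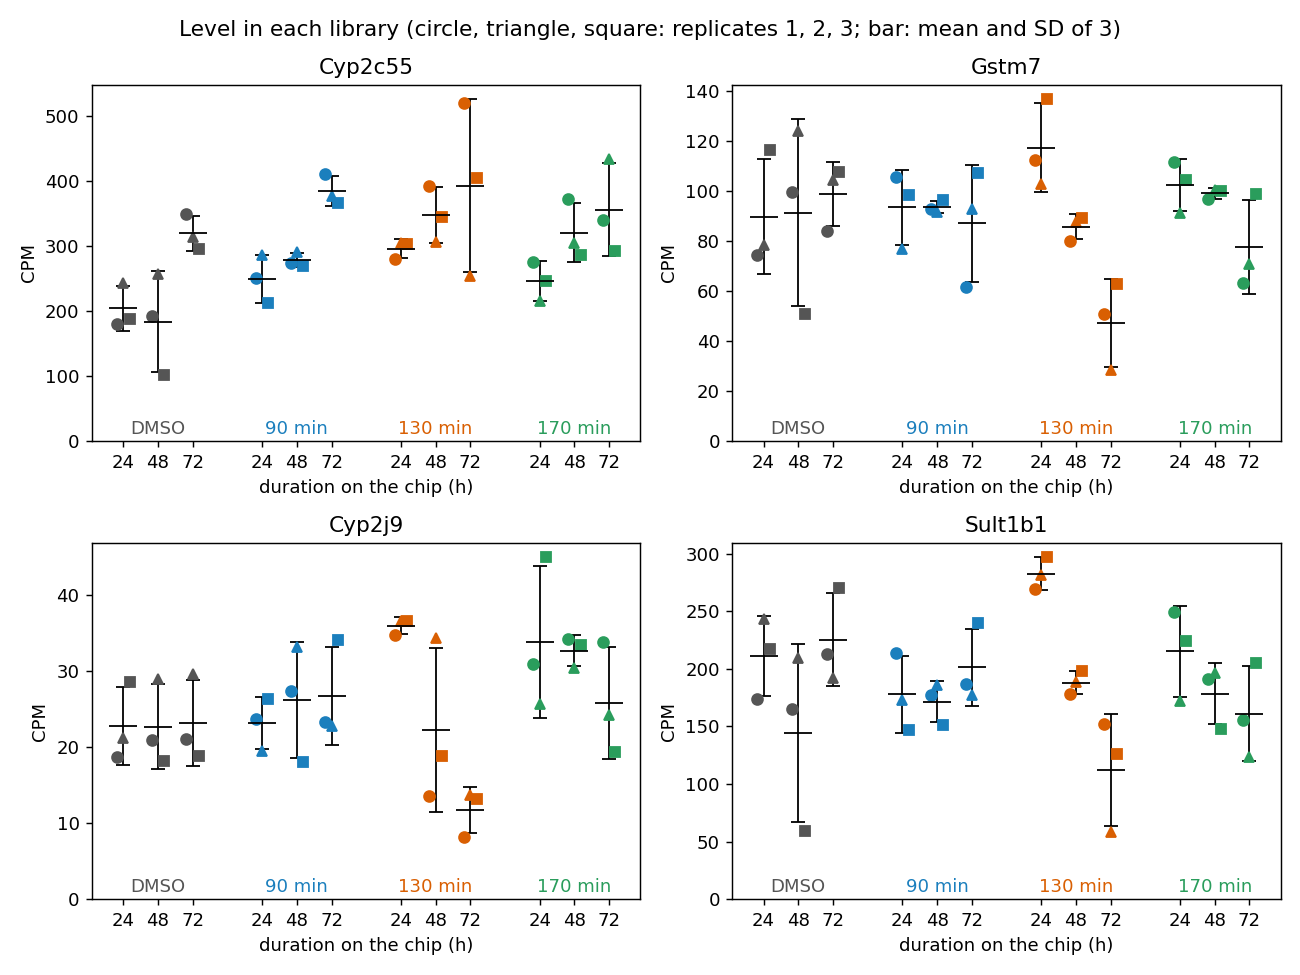
CPM of Cyp2c55, Gstm7, Cyp2j9 and Sult1b1 in each library by treatment and duration, with symbols for replicates 1 to 3 and bars for the mean and SD of 3. Cyp2c55 is higher at 72 h than at 24 h in 3 treatments without overlap, and Gstm7, Cyp2j9 and Sult1b1 at 72 h under 130 min pulses lie below their 24 h libraries.

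The counts under 130 min rest on few libraries. Both calls were lost on removing replicate 3 of the 24 h group or replicate 2 of the 72 h group, and the call of Cyp2j9 also on removing replicate 1 at 72 h. That replicate 3 at 24 h held Xist at 85.3 CPM, against 0 CPM in each 72 h library of 130 min. The part of this difference in the calls was not tested. With all 3 libraries that stand apart removed, 0 of the 65 genes and 0 of all genes passed in edgeR. The changes themselves were then -0.86 for Gstm7 and -1.66 for Cyp2j9 (both adjusted p = 0.236), and 12 of the 65 genes were at an unadjusted p under 0.05, 3 higher and 9 lower, against 9.71% of all genes. The median over the 65 genes was -0.21. The enterocyte markers moved alongside: their sum was 6744, 6860 and 9425 CPM in the 24 h libraries of 130 min from lowest to highest and 2451, 5204 and 5224 CPM in the 72 h libraries, and their median change was -1.12, with 13 of 18 lower at an unadjusted p under 0.05 and 0 past the threshold. The 8 tested markers of villus tip enterocytes had a median change of 0.31, with 2 higher at an unadjusted p under 0.05. Their part in the fall of the drug-metabolising genes was not tested.

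In plain CPM, 16 of the 65 genes were lower in all 72 h libraries of 130 min than in all 24 h libraries, and 1 was higher, against 6.60% and 5.89% of all genes tested. In DMSO 10 were higher and 5 lower without overlap, against 9.06% and 3.85%. In 90 min 7 were higher and 0 lower, against 2.85% and 3.64%, and in 170 min 3 were higher and 6 lower, against 5.49% and 6.41%. In edgeR the changes from 24 h to 72 h in DMSO, 90 min and 170 min called 0 of 65 genes and 0% of all genes, with 1, 2 and 8 of the 65 at an unadjusted p under 0.05 against 5.47%, 1.35% and 7.61% of all genes. DESeq2 called 0 in each. The gene with the smallest p in 170 min was Cyp4v3, a fatty acid hydroxylase, at -1.45 (SE 0.53, adjusted p = 0.589).

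**Figure D4:**
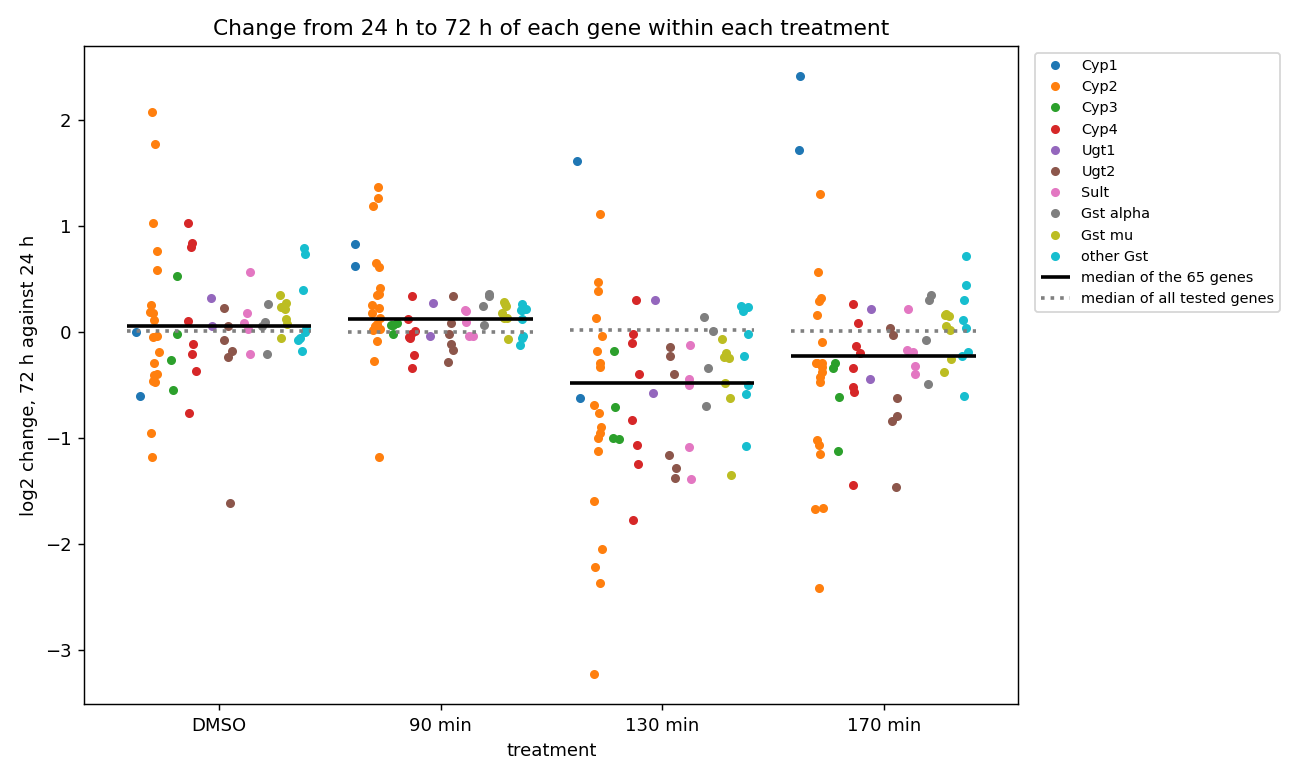
Log2 change from 24 h to 72 h of each of the 65 genes (points, coloured by class) within each treatment, with the median of the 65 genes (black line) and of all genes tested (dotted grey line). The median of the 65 is 0.06 in DMSO, 0.12 in 90 min, -0.49 in 130 min and -0.23 in 170 min; the points of 130 min are -0.21 in median without the 3 libraries that stand apart.

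Whether the change over time depended on treatment was tested as an interaction over all 4 treatments and 3 durations. None of the 65 genes passed in edgeR or DESeq2, and 0% of all genes did in edgeR. At an unadjusted p under 0.05 there were 5 of the 65, against 2.28% of all genes. The smallest p-values were 0.0108 for Cyp2j9 and 0.0138 for Gstm7, both with an adjusted p of 1. The fall under 130 min is therefore not shown to differ from the other treatments.

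The comparison of treatments asked which genes differed from DMSO under pulses of each period, averaged over durations. In edgeR 0 of 65 genes passed for 90, 130 or 170 min or for all DAPT libraries together, and 0% of all genes passed. At an unadjusted p under 0.05 there were 1, 8, 4 and 5 of the 65, against 7.57%, 5.35%, 8.06% and 6.34% of all genes. DESeq2 called 0, 1, 0 and 0 of the 65, against 0%, 0.0561%, 0% and 0% of all genes. The 3 comparisons share their DMSO libraries.

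Cyp2c55 was the gene with the smallest p against DMSO for 90 min, for 130 min and for all DAPT libraries. Its 9 DMSO libraries ran from 101 to 349 CPM with a median of 243 CPM, and its 9 libraries of 130 min from 254 to 520 CPM with a median of 306 CPM. The groups overlapped broadly. The log2 difference from DMSO was 0.59 for 130 min (SE 0.14, adjusted p = 0.274), 0.34 for 90 min (SE 0.14, adjusted p = 0.652) and 0.37 for 170 min (SE 0.14, adjusted p = 0.572). Without the 3 libraries that stand apart the difference for 130 min was 0.57, with an edgeR adjusted p of 0.0248, and DESeq2 with all libraries called it at 0.0193. At 48 h alone the 3 periods lay 0.57, 0.95 and 0.80 above DMSO (90, 130 and 170 min, each adjusted p = 1), where the DMSO group holds replicate 3 at 101 CPM.

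None of the 4 Cyp3 genes passed. Cyp3a11 ran from 141 to 551 CPM with a median of 420 CPM in the 9 DMSO libraries and from 182 to 952 CPM with a median of 650 CPM in the 9 of 130 min. It was 0.61 above DMSO for 130 min (SE 0.21, adjusted p = 0.801), 0.28 for 90 min and 0.31 for 170 min. Its 130 min difference was 0.60 without the 3 libraries that stand apart, with an edgeR adjusted p of 0.0332. There 2 of the 65 genes passed, against 0.0721% of all genes. The 65 genes chose those libraries, so this is no independent test. Cyp3a13 was 0.39 above DMSO for 130 min (SE 0.17, adjusted p = 0.875) and Cyp3a25 0.52 (SE 0.30, adjusted p = 0.929).

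Among the conjugating enzymes, Gsta3 of class alpha had the smallest p against DMSO for 170 min. It ran from 220 to 323 CPM with a median of 268 CPM in DMSO and from 170 to 298 CPM with a median of 243 CPM in 170 min, a log2 difference of -0.28 (SE 0.08, adjusted p = 0.572), and the groups overlapped. At 24 h alone it lay at -0.32 for 90 min (adjusted p = 0.542) and -0.41 for 170 min (adjusted p = 0.343). Gstt2, of the theta class, was 0.32 below DMSO for 130 min (a log2 difference of -0.32, SE 0.11, adjusted p = 0.774). Gstm1 and Gstm3 differed from DMSO by between -0.07 and 0.06 for every period, and Gsta1 by between -0.16 and -0.01. Ugt2b34 differed by between -0.05 and 0.14. Gstt3, also of the theta class and the steadiest of the non-alpha, non-mu Gst genes within groups, lay at -0.15 for 90 min (SE 0.07, adjusted p = 0.669). None of these passed.

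For these averages the 95% interval of the log2 difference, from the standard error with 24 degrees of freedom, lay wholly within a 2-fold change either way for 51 of the 65 genes in 90 min, 44 in 130 min and 52 in 170 min. The median interval reached 0.42, 0.44 and 0.43 to either side. For Cyp3a11 under 130 min it ran from 0.17 to 1.05, and for Cyp1a1 from -0.45 to 1.89.

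None of the 65 genes passed between periods. Comparing 90 with 130 min, 170 with 130 min and 170 with 90 min, edgeR called 0 of 65 genes and 0% of all genes, with 6, 6 and 0 of the 65 at an unadjusted p under 0.05 against 11.3%, 11.5% and 1.38% of all genes. DESeq2 called 0 of the 65 in each, against 0.152%, 0.28% and 0% of all genes. The smallest p for 170 against 130 min belonged to Ugt1a6a, which glucuronidates small phenols, at 1.06 (SE 0.35, adjusted p = 0.292). It averaged 14.4 counts per library, and 62.4% of the 50-base words in the last 500 bases of its transcripts are shared with other Ugt1a transcripts, so its counts are uncertain. Cyp2j9 was 0.48 higher in 170 than in 130 min (SE 0.17, adjusted p = 0.326) and Gstt2 0.31 higher (SE 0.11, adjusted p = 0.305). For 90 against 130 min the smallest p belonged to Gstt2 (0.29, SE 0.11), followed by Sult1d1 (-0.27, SE 0.11), both with an adjusted p of 0.372. For 170 against 90 min it belonged to Cyp2c70 (0.97, SE 0.54, adjusted p = 1), which averaged 3.89 counts per library and was at 0 in 4 libraries.

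At single durations, with 3 libraries against 3, edgeR and DESeq2 called 0 of 65 genes in all 9 comparisons of a period with DMSO, and edgeR called 0% of all genes. Under 130 min, 3 of the 65 at 24 h and 4 at 48 h were at an unadjusted p under 0.05, all higher, and 15 at 72 h, all lower, against 4.48%, 2.44% and 9.92% of all genes. Without the 3 libraries that stand apart there were 3 at 24 h, all higher, 3 at 48 h, 2 higher and 1 lower, and 16 at 72 h, 7 higher and 9 lower, against 7.18%, 2.29% and 9.23% of all genes. The 65 genes had a median difference of 0.24, 0.32 and -0.38 at these durations, and of 0.09, 0.07 and -0.14 without these libraries. The smallest p at 72 h was that of Gstm7, at -1.09 (SE 0.27, adjusted p = 0.303). Under 90 min 2, 1 and 0 of the 65 were at an unadjusted p under 0.05 at 24, 48 and 72 h, against 8.95%, 1.59% and 1.12% of all genes. Under 170 min there were 3, 3 and 2, against 11.5%, 3.12% and 2.23%.

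In plain CPM the 130 min libraries at 24 h lay above all DMSO libraries for 11 of the 65 genes and below them for 0, against 3.96% and 2.88% of all genes tested. At 72 h they lay below all DMSO libraries for 21 genes and above for 0, against 8.69% and 6% of all genes. At 24 h all 19 Cyp2 genes and all 4 Cyp3 genes had a positive log2 difference, with medians of 0.43 and 0.76. At 72 h all 7 Gst mu, all 8 Cyp4 and all 5 Sult genes had a negative one, with medians of -0.50, -0.61 and -0.51, while 3 of the 4 Cyp3 genes had a positive one. These signs rest in part on the libraries that stand apart: without them 14 of 19 Cyp2 and 4 of 4 Cyp3 genes were positive at 24 h, and 6 of 7 Gst mu, 5 of 8 Cyp4 and 4 of 5 Sult genes were negative at 72 h, where 4 of 4 Cyp3 genes were positive. Over all 65 genes, 54 were positive at 24 h and 48 negative at 72 h, against 41 and 37 without them. The enterocyte markers had median differences of 0.32 at 24 h and -0.44 at 72 h, and their part was not tested. Under 170 min at 72 h, 54 of the 65 genes were negative too, all 7 Gst mu among them. None of these genes passed by itself.

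Genes that work with these enzymes were listed by role. Of 146 partners (receptors and regulators, electron donors, NRF2 and glutathione genes, cofactor supply, other oxidising and reducing enzymes, esterases, other conjugating enzymes and transporters), 136 were tested. None passed from 24 h to 72 h over all treatments or against DMSO over all DAPT libraries. The exception among all comparisons was Adh6a, an alcohol dehydrogenase, at -3.46 (SE 0.74, adjusted p = 0.0497) from 24 h to 72 h under 130 min. From 24 h to 72 h under 130 min, 14 of 31 other oxidising and reducing enzymes were lower at an unadjusted p under 0.05, as were 7 of 11 other conjugating enzymes and 5 of 13 esterases, which cleave ester drugs and had a median change of -0.77, against 13.7% of all genes lower or higher. This comparison holds libraries that stand apart, and the enterocyte markers had a median change of -1.12 in it. Of 20 NRF2 and glutathione genes 4 were higher and 2 lower there, with a median of 0.06. Against DMSO, 8 of these 20 were lower at an unadjusted p under 0.05 for 90 min, 6 for 170 min and 6 for all DAPT libraries, with 0 higher, and 1 was higher and 0 lower for 130 min. The shares of all genes were 7.57%, 8.06%, 6.34% and 5.35%, and none of the 20 passed the threshold. The AHR gene itself averaged 56.8 CPM and changed by 0.05 from 24 h to 72 h (SE 0.11). Nr1i2, which encodes PXR, averaged 53.1 CPM and changed by -0.14 (SE 0.11), and Por, the electron donor of all microsomal P450 enzymes, averaged 115 CPM and changed by -0.11 (SE 0.11). Nqo1, an NRF2 target, averaged 153 CPM and lay 0.15 below DMSO over all DAPT libraries (a difference of -0.15, SE 0.11). None of these 4 passed in the averaged comparisons.

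Described here are 4 genes whose level followed the replicate number in 130 and 170 min at 24 h. They were singled out after their values were seen, and the matching is not confined to them. At 24 h, same-numbered libraries of 130 and 170 min deviated together from their group means. The correlation across genes was 0.51, 0.38 and 0.34 for replicates 1 to 3. Cyp2d34, of the Cyp2d subfamily, stood at 74.6, 3.95 and 9.14 CPM in replicates 1 to 3 of 130 min at 24 h and at 80.8, 3.20 and 4.15 CPM in those of 170 min. At 48 h it stood at 46.9, 6.85 and 48.3 CPM in 130 min and at 74.3, 6.24 and 15.1 CPM in 170 min. Replicate 1 was thus high and replicate 2 lowest in both treatments at both durations. At 72 h the numbers no longer matched, with 18, 35.2 and 24.9 CPM in 130 min and 40.9, 41.6 and 107 CPM in 170 min.

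Gstp2, of the pi class, stood at 59.9, 8.89 and 3.05 CPM in 130 min at 24 h and at 61.8, 24.0 and 10.4 CPM in 170 min. At 48 h it stood at 57.3, 14.8 and 25.9 CPM in 130 min and at 76.8, 27.6 and 12.9 CPM in 170 min, again with replicate 1 highest in both. Gstp2 shares 59% of the 50-base words of its last 500 bases with Gstp1, so its counts are uncertain. Cyp2e1, which oxidises ethanol and small solvents, went the other way, with 1.05, 18.8 and 9.14 CPM in 130 min and 1.19, 17.6 and 13.1 CPM in 170 min at 24 h. Cyp2d22 stood at 1.05, 11.9 and 27.4 CPM and at 0.00, 6.40 and 26.3 CPM in the same libraries.

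The Y-linked sum showed the same matching of numbers. In 130 min at 24 h it was 3.15, 535 and 1.52 CPM and in 170 min 19.0, 343 and 4.15 CPM. At 48 h it was 2.08, 353 and 317 CPM in 130 min and 22.5, 395 and 340 CPM in 170 min. DMSO and 90 min matched each other at 24 h in another order, with 300, 24.9 and 243 CPM in DMSO and 160, 37.7 and 344 CPM in 90 min. Which replicate was high thus differed between the 2 pairs of treatments, and the part of the source material in the spread of the drug-metabolising genes was not tested. With the Y-linked level as a covariate, a setting added after the data were seen, Cyp2c55, Gstm7 and Cyp2j9 kept their calls and Sult1b1 passed as well from 24 h to 72 h under 130 min (-1.39, SE 0.32, edgeR adjusted p = 0.0443). This covariate cannot adjust for Xist. Replicate 3 of 130 min at 24 h and replicate 1 at 72 h had Y-linked sums of 1.52 and 1.64 CPM, but Xist at 85.3 and 0 CPM.

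**Figure D5:**
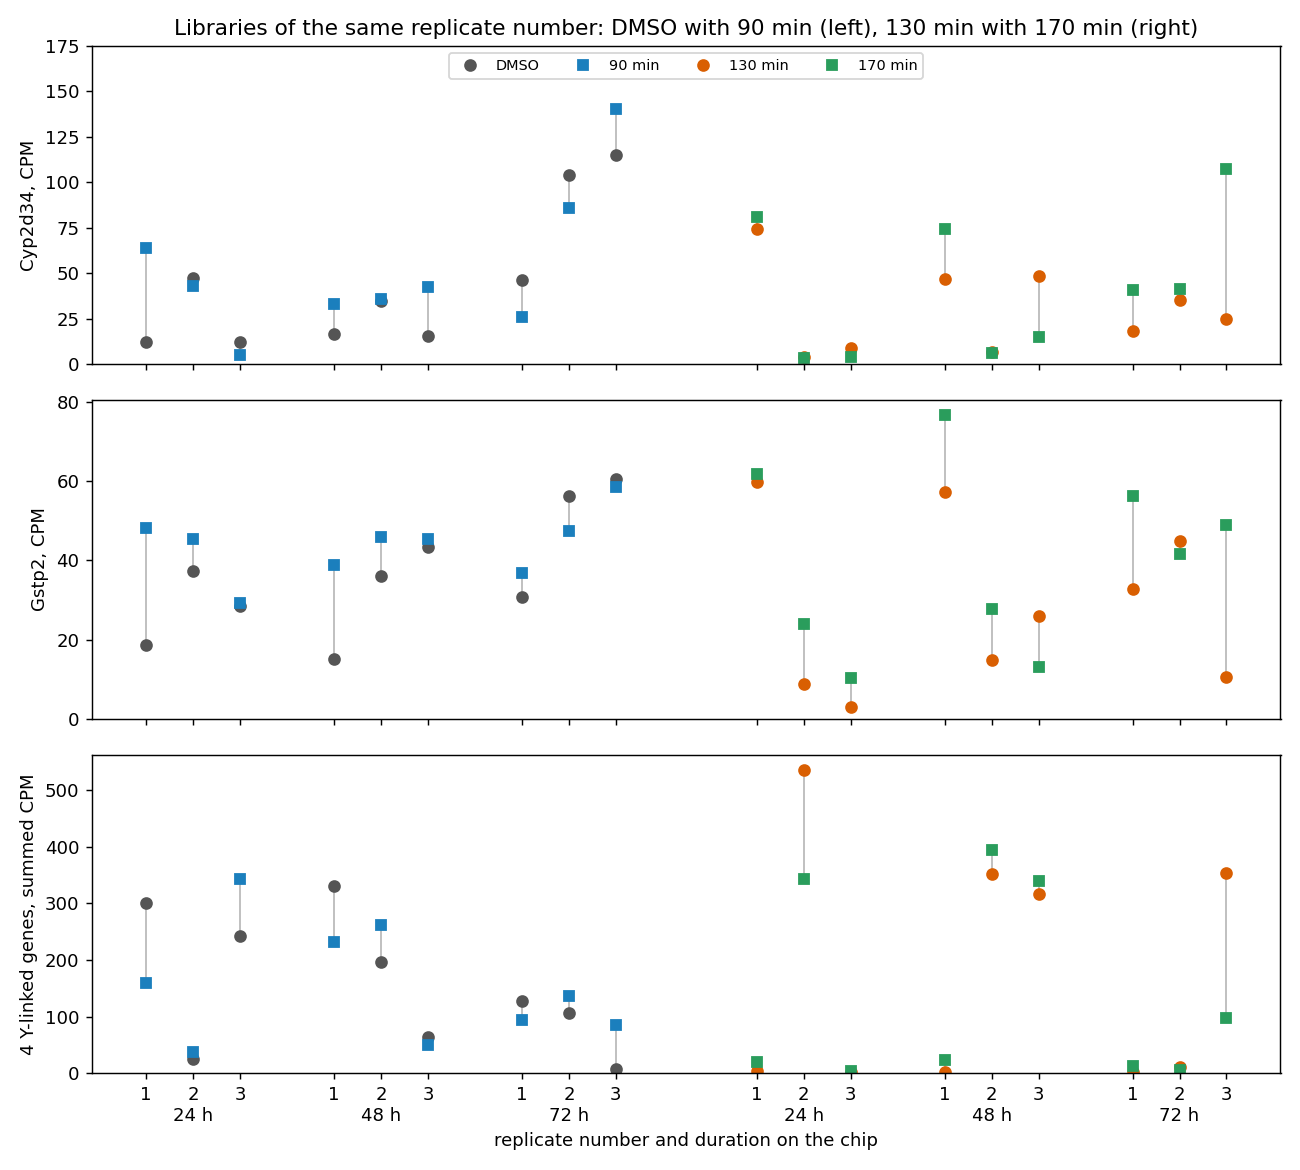
CPM of Cyp2d34 and Gstp2 and summed CPM of 4 Y-linked genes in libraries of the same replicate number and duration, joined by a line, for DMSO with 90 min (left) and 130 min with 170 min (right). At 24 and 48 h, replicate 1 of 130 and 170 min is high in Cyp2d34 and Gstp2 and at 22.5 CPM or less in the Y-linked sum.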

How the data were processed

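The authors deposited a table of whole-number counts of molecules (unique molecular identifiers) per gene for 36 libraries. STAR 2.7.8a and UMI-tools 1.1.1 are named in the submitters' processing notes, and no source used here gives the genome build or annotation. Near-identical genes can share reads: 32 of the 65 genes share 50-base words with another gene in the last 500 transcript bases, and 4 share over 50% (Gsta1, Ugt1a6a, Gstp2 and Cyp2c68), while Cyp2c55, Gstm7 and Cyp2j9 share none. From these deposited counts, CPM and fits were computed with edgeR 4.0.16 in R 4.3.3 (TMM scaling, robust quasi-likelihood F test, 1 coefficient for each of 12 groups, 24 residual degrees of freedom) on the 12487 genes with a mean of at least 3 CPM, with Benjamini-Hochberg adjustment over all of them and a threshold of 0.05. The SE is the log2 change divided by the square root of F. The 24 comparisons cover durations, treatments, both at single levels, and their interaction. The code was tested on simulated data.

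The members and lists were chosen with earlier results of these data known. Named genes are up to 10 in each direction past the threshold in an averaged comparison, or else the 3 with the smallest p; up to 4 in each direction, or else 1, at a single duration or treatment; up to 6, or else 2, in the interaction; the 3 of highest level in each class; those next to the limit; and a fixed panel of well-known enzymes. Cyp2d34, Gstp2, Cyp2c29, Cyp2e1 and Cyp2d22 were singled out after their values were seen. Replicates of a group differed by more than counting error, with a chi-square per degree of freedom of at least 1.26. Same-numbered libraries of 130 and 170 min deviated from their group means together in 9 of 9 pairs (correlation 0.22 to 0.54 across genes). In all 9 the best match had the same number, so the numbers pair these 2 treatments. For DMSO with 90 min the correlation was 0.07 to 0.44, and the best match had the same number in 6 of 9 pairs only. The main fit has no block for these numbers. The pairing comes from the data; the labels do not state it. Alternatives were RLE factors or totals for scaling, filterByExpr or no filter, DESeq2 1.42.0, the library total as a covariate, replicate blocks and left-out libraries. Leaving out 3 libraries, blocks within pairs of treatments and the Y-linked level as a covariate were added after seeing the data.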

Additional observations from a re-analysis of the deposited data

Results flagged for a closer look

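In 2 of the genes named for a comparison, 130 min pulses and DMSO differed in opposite directions at 24 h and at 72 h in every library. Only the named genes were examined for this, and Ugt2b36, which is not among them, showed the same pattern. Cyp2j9 stood at 34.7, 36.6 and 36.6 CPM under 130 min and at 18.6, 21.2 and 28.5 CPM in DMSO at 24 h, and at 8.18, 13.7 and 13.1 CPM against 21.0, 29.5 and 18.8 CPM at 72 h. The 2 log2 differences lie 1.56 apart. Sult1b1 stood at 269, 282 and 297 CPM under 130 min and at 174, 243 and 217 CPM in DMSO at 24 h, and at 152, 58.6 and 126 CPM against 213, 192 and 271 CPM at 72 h, with the differences 1.42 apart. This contrast by itself was not tested; the interaction over all 4 treatments and 3 durations gave edgeR p-values of 0.0108 for Cyp2j9 and 0.0161 for Sult1b1, with an adjusted p of 1 for both. Groups of 3 libraries were not examined for single outlying values.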

How the results depend on the processing

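The number of the 65 genes past the threshold was within 1.5 times its value in the report except as follows. Without a filter on low counts it was 2 for 48 h against 24 h, 5 for 72 h against 24 h, 2 for 72 h against 48 h, 8 for 72 h against 24 h in 130 min, 2 for 130 min against DMSO at 72 h and 1 for the interaction. With the log2 library total as a covariate it was 0 for 72 h against 24 h and 4 in 130 min. DESeq2 gave 2, 3 and 7 for 72 h against 24 h, 72 h against 48 h and 72 h against 24 h in 130 min, and 1 for 130 min against DMSO. Leaving out the 3 libraries that stand apart gave 0 for 72 h against 24 h in 130 min and 2 for 130 min against DMSO. With single libraries or replicates left out, the counts ran from 0 to 4 for 72 h against 24 h, 0 to 8 for 72 h against 48 h (8 without replicate 3 of every group), 0 to 8 for 72 h against 24 h in 130 min, and 0 to 1 for 130 min against DMSO over all durations and at 48 h. The cause was not tested. Over all genes, 21 calls for 72 h against 24 h became 304 without a filter and 104 with DESeq2, and 22 in 130 min became 266 and 146. No direction of a named gene reversed.

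The replicate blocks changed no count of calls: with the replicate number as a block, 72 h against 24 h gave 1 and 72 h against 24 h in 130 min gave 2, and a block within 130 and 170 min alone gave 0 for the pairing of 170 with 130 min. A block on the number shared over all durations does not model the pairing of 130 with 170 min within a duration. The averaged tests between durations, that of Cyp2c55 among them, thus treat these paired libraries as independent.

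Over its alternatives the change of Cyp2c55 from 24 h to 72 h had an edgeR or DESeq2 adjusted p of 0.000244 to 0.221. In 130 min Gstm7 ranged from -1.65 to -0.86 and lost its call in 5 of 18 settings, and Cyp2j9 from -1.72 to -1.45 and lost it in 7 of 18. At a median total of 958749 counts, genes near 3 CPM rest on about 2.88 counts per library, which limits what can be seen for them.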
